A study of Sus scrofa domesticus and Sus scrofa with 18 samples.

Results

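The lncRNAs described here are 131 of the 15040 long non-coding RNAs (lncRNAs) quantified in pig spleen, chosen because their level at birth exceeded that at every other stage of the domestic pig. The measure is log2(FPKM+1), where FPKM counts fragments per kilobase of transcript and per unit of sequencing depth. A lncRNA was a member when its mean at B0d lay at least 0.75 above its mean at every one of E55d, W30d, A180d and A2Y and its mean over all 18 libraries was below 5. These measured values chose the members, so the height at birth is a description and was given no test. The upper limit on the mean removed 1 further lncRNA, TU53083, and the 2 lncRNAs that the rule set aside by name, TU78568 and TU39066, did not reach the margin. The members were 0.871% of the lncRNAs, and 85 of 12913 protein-coding genes (0.658%) passed the same rule.

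Spleen RNA came from female Rongchang pigs, a Chinese domestic breed, at 5 stages and from female Wild Boars (WB) aged 2 years. The stages were E55d (fetal), B0d (just after birth), W30d (30 days after weaning), A180d (180 days) and A2Y (2 years). In the E55d label, 55 counts the days left until birth. Each of the 6 groups had 3 libraries from separate animals, and the labels give no treatment. WB and A2Y share an age of 2 years and differ in breed. The paper collected the Wild Boars at Ya'an in Sichuan and places the Rongchang breed in Rongchang, Chongqing. Breed, origin and sequencing depth cannot be told apart between WB and A2Y. In whole spleen, fewer cells of a type and less RNA per cell cannot be told apart. The files hold no read counts, so the number of reads behind a value is unknown and no counting interval is given. The paper lists more high-quality sequence for every A2Y library than for any other library. The part of this difference in the comparison of WB with A2Y was not tested.

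LncRNAs are transcripts that are not translated into protein, and many act in or near the nucleus on the chromatin and transcription of neighbouring genes, while others act on RNA or protein elsewhere in the cell. Many have no known function, and they are often restricted to a cell type or a stage. The spleen filters blood, removes old red cells and hosts immune responses. In the fetus it also takes part in blood formation, and around birth it is colonised by lymphocytes while its red and white pulp take shape. The members are known only by the identifiers the authors gave their assembled transcripts, and no role of any of them was available, so they are ordered below by their pattern over the stages.

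At birth the median member stood at 1.86 on the log2(FPKM+1) scale. It stood at 0.63 in the fetus (E55d), 0.64 after weaning (W30d), 0.17 in the A180d pigs and 0.61 in the A2Y pigs. The median over the 14129 lncRNAs with FPKM above 0.1 in at least 3 libraries was 0.65 at birth and 0.63, 0.47, 0.21 and 0.53 in the same order of the other stages. Outside birth, the median member was therefore near the median lncRNA, with the widest gap at W30d. The means over the members were higher, at 0.93, 1.11, 0.61 and 1.02 in the same order of stages. Those over all lncRNAs tested were 0.78, 0.62, 0.39 and 0.68. In FPKM, the median of the member means was 2.69 at birth, against 0.569 in the fetus, 0.563 after weaning, 0.131 in A180d pigs and 0.536 in A2Y pigs. The B0d means of single members ran from 0.91 to 6.32, with quartiles of 1.44 and 2.86. The members made up 4.98, 4.47 and 4.83% of the summed lncRNA FPKM of the 3 B0d libraries, against 1.02 to 1.32% of the E55d, 1.57 to 2.63% of the W30d, 1.38 to 1.76% of the A180d and 1.38 to 1.89% of the A2Y libraries.

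**Figure D1:**
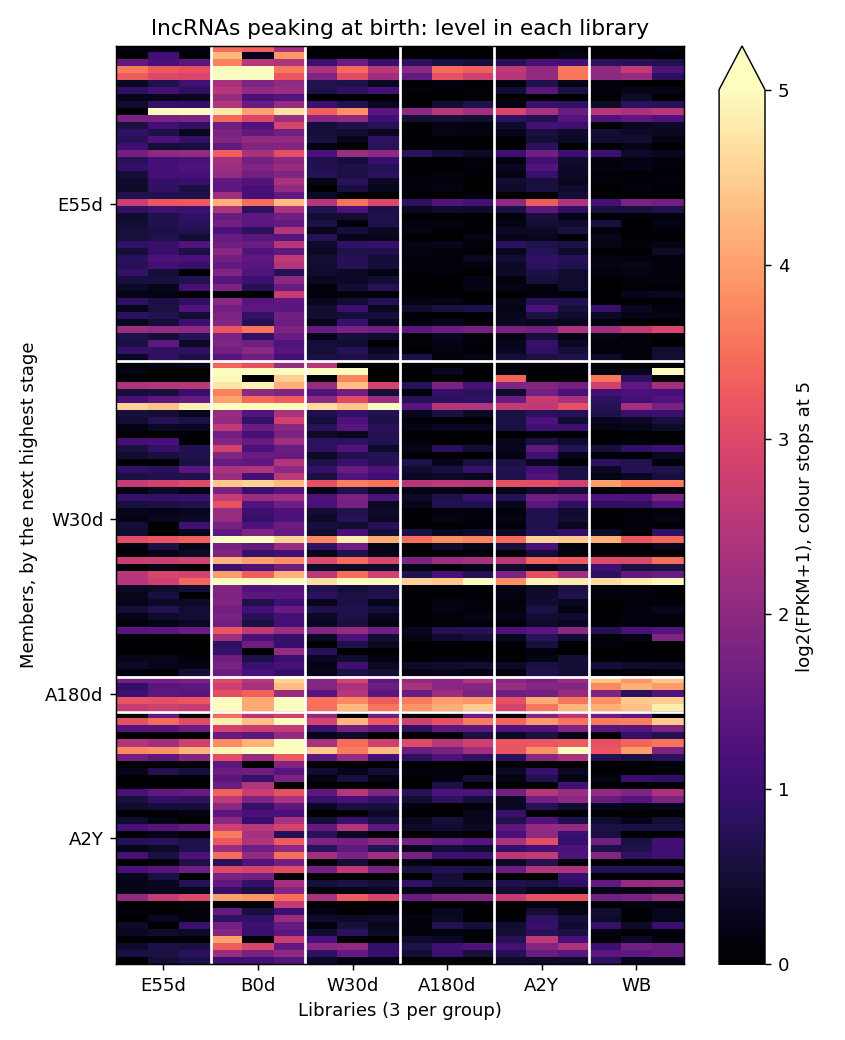
Level of each of the 131 members (rows, grouped by the stage with the next highest mean and ordered by margin within it) in each of the 18 libraries (columns), as log2(FPKM+1) with the colour scale stopping at 5. The B0d columns are the brightest in most rows, and the A180d columns are dark for most members, whose median there was 0.17.

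The margin, the B0d mean minus the next highest domestic stage mean, had a median of 0.91, quartiles of 0.82 and 1.06, and a range from 0.75 to 2.92. It reached 1 in 42 members, 1.5 in 6 and 2 in 3. The next highest stage was E55d for 45 members, W30d for 45, A2Y for 36 and A180d for 5. The lowest stage was A180d for 92 members and E55d for 30. A180d was also the lowest stage for 63.4% of all lncRNAs tested, and the A2Y mean lay above the A180d mean in 121 members and in 87.1% of all. A low at 180 days followed by a higher level at 2 years was thus a feature of lncRNAs in general in these libraries.

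The lncRNAs nearest the limit were close together. Just inside it stood TU46529 (margin 0.7622), TU77873 (0.7587) and TU75353 (0.7516), and just outside it TU62946 (0.7499), TU21151 (0.7486) and TU31201 (0.7485). Membership near the limit therefore turned on differences in the third decimal.

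The replicate spread was large beside many margins. The median standard deviation (SD) over the 3 B0d libraries was 0.49, and it exceeded the margin in 13 members. Every B0d library lay above every other domestic library in 84 members, beside 2.57% of all lncRNAs tested, a share that the rule itself fixes in large part for the members. FPKM was above 1 in all B0d libraries and in no other domestic library for 27 members, beside 0.403% of all lncRNAs tested, which the rule likewise fixes in large part.

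The clearest on-and-off pattern belonged to TU8312, which had the largest margin. It stood at 3.48, 3.34 and 2.34 in the B0d libraries on the log2(FPKM+1) scale, at 0.12, 0.12 and 0.15 at E55d, and at 0.11 or less in each W30d, A180d and A2Y library. Its lowest B0d library thus lay far above every other domestic library, and its mean FPKM was 7.78 at B0d and 0.0937 at E55d. In WB it was not detected in 2 libraries and stood at 0.12 in the other. TU33979 showed the same separation at a higher floor. Its B0d libraries stood at 3.67, 2.51 and 2.42, while E55d reached 1.48 and W30d 1.59 at most, so the groups did not overlap. Its means at A180d and A2Y were 0.66 and 1.01.

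Other members with large margins were carried by some animals and absent from others. TU34829 stood at 4.25, 0.25 and 3.92 in the B0d libraries, and outside birth it passed 1 in a single library, at 1.11 in an E55d animal. TU18798 stood at 4.92 and 4.49 in B0d libraries 1 and 3 and was not detected in B0d 2. It was also found in 1 animal each at W30d (3.73) and A2Y (3.37) and was not detected in any E55d or A180d library. In WB it stood at 3.56, 0.87 and 0. The B0d group therefore overlapped the others for both of these lncRNAs, and their SDs at B0d (2.22 and 2.73) stood beside means of 2.81 and 3.14. TU13459 was high in every B0d library (3.39, 3.11 and 2.12) and in 1 W30d library (2.51), and was at 0 in the remaining W30d libraries.

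TU81265 had the highest B0d mean of all members, 6.32 ± 0.25 (SD, n = 3), or 79.6 FPKM. At W30d it stood at 6.45 and 6.55 in 2 animals and at 0 in the third. At E55d, A180d and A2Y no library passed 0.30, while WB stood at 0.14, 0.25 and 7.10. The highest level of this lncRNA was thus in a Wild Boar. It kept 74.9% of its B0d FPKM in the W30d mean, the largest share of any member, but 2 of 3 libraries carried that mean. In all, 4 members (TU81265, TU18798, TU73301 and TU83598) had a library at 0.1 or less and another at 3 or more within 1 group, as did 44 of the 14129 lncRNAs tested. Their switching between animals of 1 group was chosen for description after the values were seen.

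**Figure D2:**
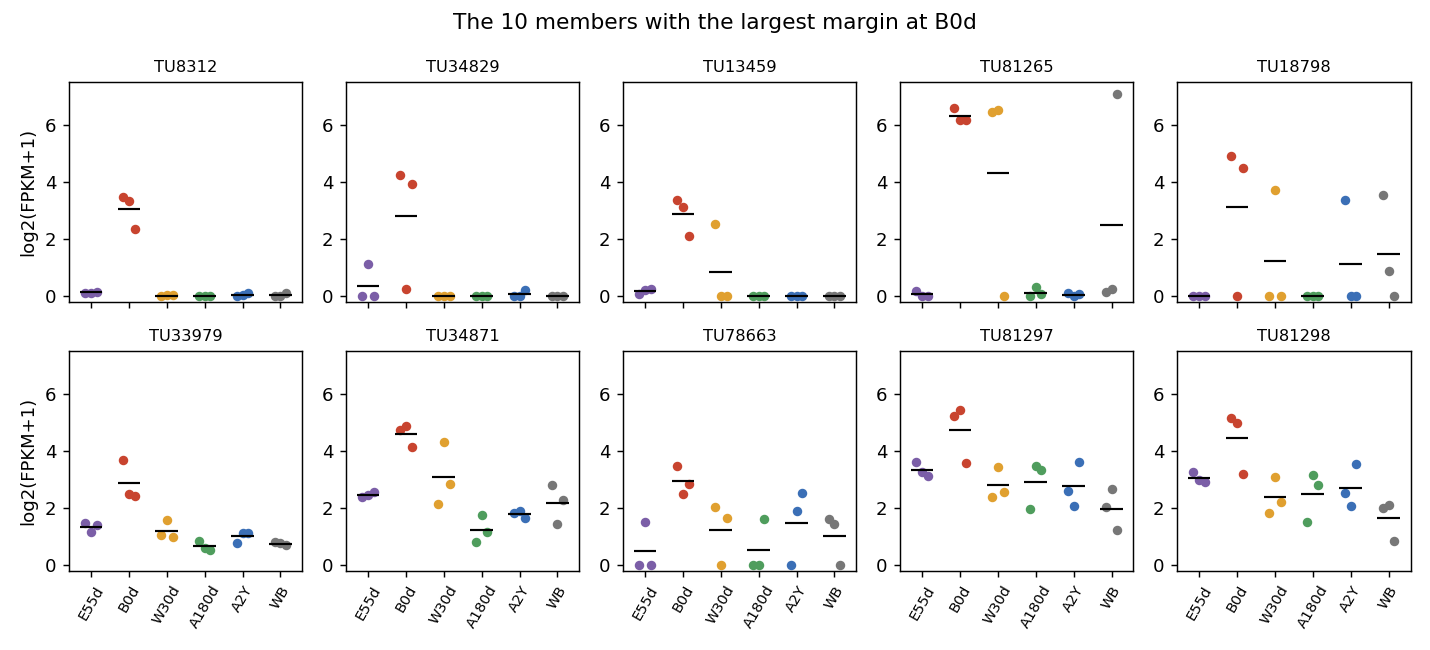
Level of the 10 members with the largest margins, as log2(FPKM+1), in each library of the 6 groups (points) with the group mean (line). TU8312 and TU33979 separate B0d from every other domestic library, while TU34829 and TU18798 have a B0d animal near or at 0 and TU81265 has 2 of 3 W30d animals at the B0d level.

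Of the remaining large margins, those of TU34871, TU81297 and TU81298 came on a higher background. TU34871 stood at 4.73, 4.89 and 4.14 at B0d and between 2.39 and 2.56 at E55d, but W30d library 2 reached 4.33 and so overlapped the B0d range. TU78663 stood at 3.48, 2.49 and 2.84 at B0d and was present in some animals and absent from others at every other stage. It stood at 0.00, 1.51 and 0 at E55d and at 2.05, 0 and 1.65 at W30d. At A180d it stood at 0, 0 and 1.62, and at A2Y at 0, 1.91 and 2.54. TU81297 and TU81298, whose identifiers are adjacent, moved together, with B0d values of 5.24, 5.44 and 3.60 for the former and 5.16, 4.99 and 3.21 for the latter. In both, B0d library 3 lay well below the other B0d animals and within the range of the other stages.

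The 5 members most abundant at birth were TU81265, TU78696, TU47166, TU73258 and TU73721, with B0d means of 6.32, 5.90, 5.85, 5.33 and 5.11. TU47166 was the one of these 5 whose B0d libraries did not overlap the other stages, with 5.68, 6.08 and 5.79 at B0d against 4.37 to 4.86 in the fetus, 4.41 to 4.99 after weaning, and 1.36 to 2.52 and 2.61 to 3.12 in the A180d and A2Y pigs. It was therefore already abundant in the fetus, and its A180d FPKM was 6.30% of that at B0d. TU73258 stood at 4.89, 5.96 and 5.13 at B0d and overlapped A2Y, where 1 animal reached 5.42. TU73721 stood at 5.61, 5.17 and 4.56 at B0d, and its W30d animals stood at 3.74, 4.81 and 4.13, so it overlapped W30d.

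TU78694, TU78695 and TU78696 were the single run of 3 members with consecutive identifiers, and all were abundant. Their B0d libraries stood at 5.04, 4.12 and 5.59 for TU78694, at 5.10, 4.08 and 5.26 for TU78695, and at 6.0, 5.18 and 6.52 for TU78696. B0d library 2 was the lowest each time and fell within the range of other stages. Their E55d means (2.73, 3.17 and 2.90) were the lowest of the 5 stages, and their A180d means (4.15, 3.83 and 4.64) were high for the group, so that TU78694 and TU78695 had the largest A180d shares of B0d FPKM among the members, 53.5 and 46.2%. The median member kept 6.30% at A180d, 21.7% at E55d, 24.0% at W30d and 22.1% at A2Y.

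Some of the members that kept the largest share of their birth level at another stage varied widely between animals there. At E55d, TU83598 kept 97.4% of its B0d FPKM, with 0.06, 4.96 and 5.18 in the E55d libraries and 4.80, 4.0 and 4.71 at B0d on the log2 scale. It therefore met the rule because 1 fetal library was near 0, and the other fetal libraries were above every B0d library. TU25400 followed with 49.3%. At W30d TU81265 was followed by TU73721 with 53.2%. At A2Y, TU78611 kept 58.6%, with 2.36, 3.07 and 0.93 over the animals, and TU73379 kept 53.5%, with 2.67, 3.11 and 3.15.

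Members often had neighbouring identifier numbers. Grouping members whose numbers differed by 10 or less, a limit set after the values were seen, put 71 of the 131 in 21 blocks of at least 2, among them 53 in 12 blocks of at least 3, and left 60 alone. Where these lncRNAs lie in the genome was not analysed here, and whether the members of a block are separate transcripts or pieces of a longer one was not tested.

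The largest block, TU39775 to TU39808, held 11 members among 23 lncRNAs. Of the other 12, which the rule did not choose, 11 also had their highest domestic mean at B0d, beside 29.3% of all lncRNAs tested. Its members had B0d means from 1.39 to 2.25, with a median over the block of 1.64. The medians were 0.71 in the fetus, 0.60 after weaning, and 0.06 and 0.50 in the A180d and A2Y pigs. The members of the block were thus nearly silent at 180 days, where the median over all lncRNAs tested was 0.21. The median correlation between pairs of its members over the 15 domestic libraries was 0.93, a description over points that share libraries and the choice by level at birth. The block TU79152 to TU79172 held 8 members of 19 lncRNAs, and the other 11 were highest at B0d too. Its members had a median of 1.74 at birth, medians of 0.82, 0.52, 0.10 and 0.56 at the other stages in order of age, and a median r of 0.95. The block TU22690 to TU22705 held 6 members of 9 lncRNAs, with 2 of the other 3 highest at B0d. Its members stood at lower levels (median 1.25 at B0d and 0.23 at E55d). The block TU77872 to TU77883 held 4 members of 10 lncRNAs, with all of the other 6 highest at B0d. Its members kept a median of 1.26 at both W30d and A2Y.

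The 3 newborn animals did not carry the pattern equally. The mean over the members was 2.50, 1.93 and 2.34 in B0d libraries 1, 2 and 3, and 0.53 to 1.32 in the other domestic libraries, so that every B0d library lay above all of these. B0d library 2 was the lowest of the 3 for 84 members (64.1%, against 47.8% of all lncRNAs tested), and B0d library 1 the highest for 71 (54.2%, against 50.3%). A single B0d library stood at least 1 above both others in 7 members for library 1, in 9 for library 3 and in 0 for library 2, beside 0.757, 0.941 and 0.276% of all lncRNAs tested. A library stood at least 1 below both others in 9 members for library 2, in 7 for library 3 and in 0 for library 1, beside 0.559, 0.495 and 0.156% of all. In TU4242 the B0d libraries stood at 0.08, 0 and 2.70, and in TU4243 at 0, 0.08 and 2.65, so both rested on B0d library 3. These 2 were named after their values were seen. At other stages single animals stood out too. W30d library 2 was the highest of its group for 81 members (61.8%, against 54.1% of all lncRNAs tested), A2Y library 2 for 82 (62.6%, against 51.4%), and A2Y library 1 was the lowest for 92 (70.2%, against 59.3%). Without W30d library 2 the rule chose 144 lncRNAs, among them 130 of the members.

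The rule was also applied with 2 newborn animals and the remaining one was then read. The choice did not use that library but did use the other stage means, so the counts are a description and not a test. Without B0d library 1 the rule chose 145 lncRNAs, of which 120 (82.8%) were above the next stage in the library left out and 65 (44.8%) passed the margin there, beside 39.7 and 3.94% of all lncRNAs tested. Without B0d library 2 it chose 285, of which 208 (73.0%) and 42 (14.7%) did so, beside 20.3 and 1.05%. Without B0d library 3 it chose 160, of which 129 (80.6%) and 54 (33.8%) did so, beside 31.6 and 3.23%. The median difference from the next stage in the animal left out was 0.71, 0.25 and 0.53, below the margin each time. Of the 131 members, 88, 123 and 91 were chosen again without library 1, 2 and 3.

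B0d library 3 also carried liver transcripts. ALB, which encodes serum albumin made by the liver, stood at 0.13, 0.45 and 9.05 in B0d libraries 1, 2 and 3 on the log2(FPKM+1) scale, and APOA1, an apolipoprotein made by liver and gut, at 5.67, 5.65 and 7.28. ALB also stood at 5.54 in WB library 3, at 3.25 in A180d library 1 and at 3.22 in A2Y library 2. Of the 4 genes of the liver list, these 2 could be paired, and their mean ranged over the B0d libraries from 2.90 to 8.17. The E55d libraries ranged from 2.28 to 2.76, the W30d from 2.76 to 3.15, the A180d from 2.66 to 4.58, the A2Y from 2.70 to 4.37 and the WB from 3.0 to 5.88. Of the 131 members, 129 still had their highest mean at B0d without B0d library 3, with a median margin of 0.91. The B0d mean without it exceeded the WB mean by 0.75 in 111. The other B0d libraries had also chosen these members, so both counts follow in large part from the choice. Applied anew without B0d library 3, the rule chose 91 of the 131 again. The part of liver RNA in the members high in B0d library 3 alone was not tested.

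The overall level of lncRNAs moved with the stages as well. The mean over all lncRNAs tested was 0.79 in the newborn, 0.78 in the fetus, 0.62 after weaning, 0.39 in the A180d and 0.68 in the A2Y pigs, with SDs from 0.04 to 0.10 (n = 3 libraries each). Scaling factors from the 6898 lncRNAs detected in every library ran from 1.26 to 1.89 over the B0d, 1.39 to 1.63 over the E55d, 0.90 to 1.41 over the W30d, 0.47 to 0.63 over the A180d and 1.02 to 1.61 over the A2Y libraries, while factors from protein-coding genes ran from 0.86 to 1.26 over all libraries. An alternative added after the data were seen divided the values by the lncRNA factors. There, 124 of the 131 members still had their highest domestic mean at B0d, but 23 kept the margin, and the median margin was 0.59. The choice of the members fixed the 124 in large part, and no other lncRNA passed the rule with these factors. The median margin over all lncRNAs tested was -0.17 on the deposited values and -0.24 with lncRNA factors. With factors from protein-coding genes, 121 members kept the margin.

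**Figure D3:**
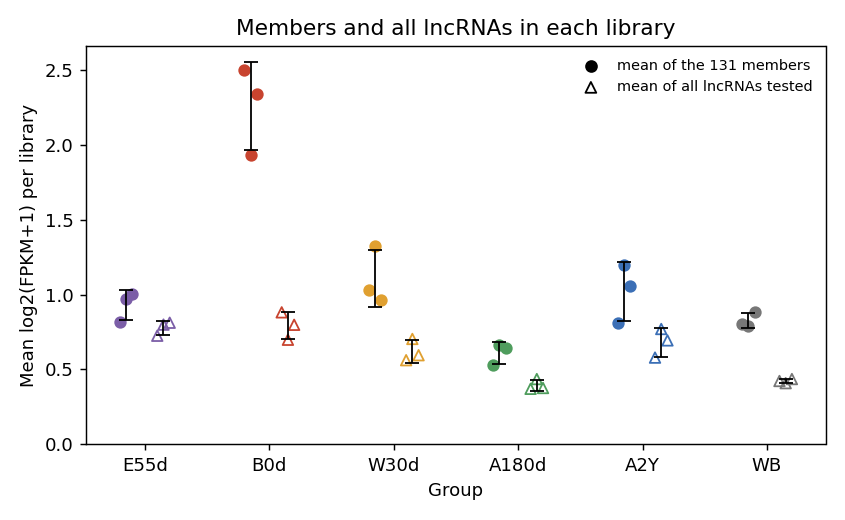
Mean log2(FPKM+1) in each library over the 131 members (filled circles) and over all 14129 lncRNAs tested (open triangles), by group, with bars for ± 1 SD around the group mean of 3 libraries. The members stand at 1.93 to 2.50 at B0d and at no more than 1.32 in the other domestic libraries, while all lncRNAs are lowest at A180d and in WB.

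The 23 members that kept the margin had margins of 0.75 to 2.41 on the scaled values. They included 8 of the 10 members with the largest margins, TU81297 and TU81298 being the exceptions (scaled margins of 0.37 and 0.56). TU8312 had 2.41, TU34829 had 2.01 and TU33979 had 1.18. Of the blocks, TU39775 to TU39808 kept 4 members and TU79152 to TU79172 kept 1. For TU78694, TU78695 and TU78696 the difference turned to -0.78, -0.55 and -0.31, so that their peak at birth rested on the deposited scaling.

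**Figure D4:**
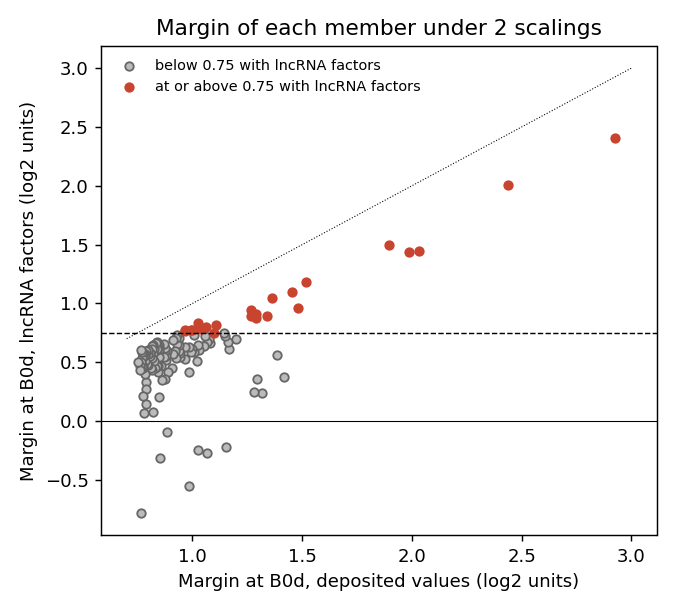
Margin of each of the 131 members at B0d on the deposited values (horizontal axis) and after division by lncRNA factors (vertical axis), both in log2 units, with the limit of the rule (dashed line) and the line of equality (dotted). TU8312 keeps 2.41 of its 2.92, 23 members lie at or above 0.75, and 7 lie below 0, where another stage is higher.

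The WB libraries took no part in the choice except through the upper limit on the mean, and the question for them is whether adult spleens of the other breed carry these lncRNAs at the level of adult domestic pigs. The median over the members was 0.27 in WB and 0.61 at A2Y, and the WB mean was below the A2Y mean in 95 of 131 members (72.5%) and in 84.3% of all lncRNAs tested. Against A2Y, 4 members were higher in WB and 10 were lower by limma with Benjamini-Hochberg adjustment over all lncRNAs (adjusted p of at most 0.05). Of all lncRNAs tested, 1.01% were higher in WB and 16.7% were lower, against 3.05 and 7.63% of the members. The median log2 difference, WB minus A2Y, was -0.25 over the members and -0.24 over all lncRNAs, so both medians were lower in WB by a like amount. With lncRNA factors the split turned to 18 higher and 2 lower among the members (13.7 and 1.53%), and to 5.72 and 2.49% of all lncRNAs, and the rule had held A2Y below B0d but not WB.

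Among the called members, TU79892 and TU79893, with adjacent identifiers, rose most. TU79892 stood at 1.98, 1.77 and 2.17 at A2Y and at 4.38, 3.90 and 4.39 in WB, so the groups did not overlap. The log2 difference was 2.25 ± 0.40 (SE), with a limma adjusted p of 0.00201. TU79893 went from 2.15, 1.92 and 1.88 to 3.76, 4.16 and 3.95, a difference of 1.97 ± 0.36 (adjusted p = 0.00221 by limma). Both were at 4.55 and 4.30 in B0d library 3, above their other B0d values of 3.02 and 2.48 for TU79892 and 2.80 and 2.31 for TU79893, and their WB means (4.22 and 3.96) exceeded their B0d means. With lncRNA factors their margin at birth turned to -0.22 and -0.27.

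TU56216 was the third member with a WB mean (1.91) above its B0d mean. It stood at 0.70, 0.62 and 0.89 at A2Y and at 1.48, 2.11 and 2.15 in WB, a difference of 1.17 ± 0.26 (adjusted p = 0.00696 by limma). TU77082 rose from 3.14, 3.08 and 2.82 to 4.0, 3.65 and 3.64, a difference of 0.75. Its B0d libraries (4.42, 4.55 and 4.29) lay above every WB library. Without WB library 1 its adjusted p was 0.0723, without A2Y library 3 it was 0.0676, and in a fit of A2Y and WB alone it was 0.0503, by limma. With lncRNA factors the differences were larger, at 1.80 for TU77082, 1.91 for TU56216, 2.97 for TU79893 and 3.25 for TU79892.

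Among the 10 members that fell, TU4169 and TU4170 changed most and have adjacent identifiers. TU4169 stood at 1.59, 2.45 and 2.39 at A2Y and at 0.77, 0.78 and 0.77 in WB, a difference of -1.37 ± 0.25 with a limma adjusted p of 0.00206. TU4170 stood at 1.44, 2.10 and 2.06 at A2Y and at 0.63, 0.62 and 0.60 in WB, a difference of -1.25 ± 0.24 (adjusted p = 0.00288 by limma). The WB libraries of both were close together and below every A2Y library. At A180d, TU4169 stood at 0.60, 0.71 and 0.61, near the WB values. The mean over all lncRNAs was likewise nearer between A180d and WB (0.39 and 0.42) than between WB and A2Y (0.68). With lncRNA factors the differences of TU4169 and TU4170 were -0.71 and -0.66, with limma adjusted p of 0.0127 and 0.0137. TU47166, TU20945 and TU73379 fell by 1.19, 1.15 and 1.13, and the groups did not overlap in any of the 3, but their calls were lost with lncRNA factors (adjusted p of 0.727, 0.271 and 0.665 by limma). The call of TU47166 was also lost without A2Y library 2, A2Y library 3, WB library 1 or WB library 3 (adjusted p from 0.0513 to 0.128 by limma), and that of TU20945 without A2Y library 2 or WB library 1 (0.0786 and 0.0543).

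The remaining members that fell were TU25402, TU25400, TU39781, TU715 and TU39775. TU39781 and TU39775 belong to the largest identifier block, whose members had a median of 0.50 at A2Y and 0.08 in WB. TU25402 and TU25400 fell by 1.09 and 1.06. All 5 lost their call without A2Y library 2 (adjusted p from 0.162 to 0.265 by limma), without WB library 1 (0.0886 to 0.125) and with lncRNA factors (0.0808 to 0.713). The count of members that fell moved with single libraries. It was 17 (13.0%) without A2Y library 1 and 3 (2.29%) without A2Y library 2, beside 21.1 and 6.94% of all lncRNAs tested. Without WB library 1, 2 and 3 it was 3, 5 and 5 (2.29, 3.82 and 3.82%), beside 8.69, 7.58 and 9.10% of all. The share over all lncRNAs thus moved with the same libraries.

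**Figure D5:**
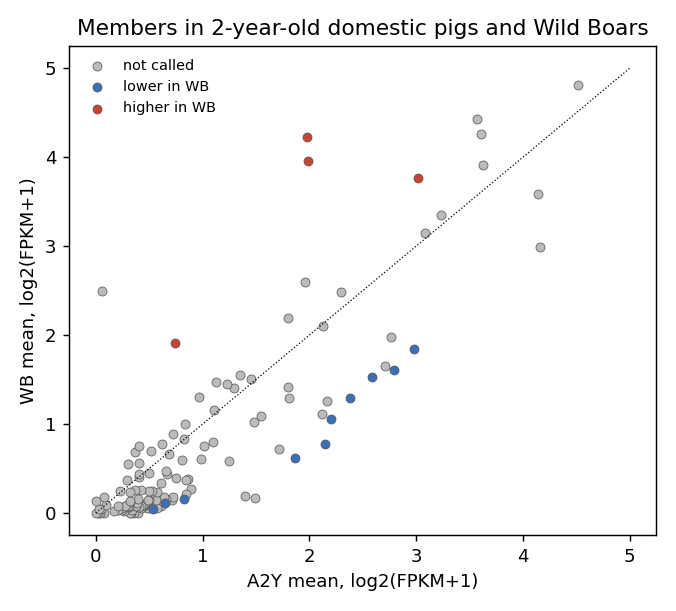
Mean log2(FPKM+1) of each of the 131 members in the 3 A2Y libraries (horizontal axis) and the 3 WB libraries (vertical axis), with the line of equality (dotted) and the members called by limma in colour. TU79892 and TU79893 are the pair near 2 on the horizontal and 4 on the vertical axis, and the single uncalled point above 2 at the left is TU81265, carried by 1 Wild Boar.

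Compared with newborn domestic pigs, the WB mean was lower by at least 0.75 in 117 members, beside 19.5% of all lncRNAs tested. Every B0d library lay above every WB library in 111 members, beside 47.1% of all. Since B0d chose the members, these counts describe them and were not tested. With lncRNA factors, 69 members kept the difference of 0.75. The share of all lncRNAs with these factors is not given, so the drop from 117 cannot be read as particular to the members.

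Of the 8215 protein-coding genes whose identifiers could be paired with a symbol, those whose levels followed the member mean most closely over the 15 domestic libraries included LEPR, KLHL42, ASTN2, GRIA4, RYBP, TCF7L2, PTPRB, LIFR and TBX2, with Pearson's r from 0.954 down to 0.884. The points share libraries, and the members' mean had an r of 0.676 with the mean of all lncRNAs. LEPR, the leptin receptor, stood at 1.78 ± 0.29 at B0d (SD, n = 3) and at no more than 1.11 in any other domestic library. LIFR, the receptor of leukaemia inhibitory factor, stood at 5.76 ± 0.12 at B0d and at 3.91 to 4.51 in the means of the other stages. RYBP, a subunit of Polycomb repressive complexes, stood at 4.36 ± 0.41 against 2.99 to 3.33, and TBX2, a T-box transcription factor, at 3.31 ± 0.51 against 1.58 to 1.99. PTPRB, a tyrosine phosphatase of vascular endothelium, stood at 3.72 ± 0.18 against 2.32 to 2.83. These genes were picked for following the members, so their height at birth is fixed by the choice.

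Markers of cell types followed several courses, and some were highest at birth. Of the erythroid markers, 1 of 4 that could be paired was highest at B0d (HBB, the beta chain of haemoglobin), with the mean of the list at 7.82 to 9.04 over the B0d libraries and 5.92 to 9.31 over those of E55d. HBB is listed at 0 in 1 E55d and 2 W30d libraries, and its remaining E55d libraries (13.46 and 13.52) were within the B0d range of 12.44 to 13.55. Of the 3 B cell, 3 T cell, 2 neutrophil and 4 proliferation markers, 0 were highest at B0d. The T cell list stood at 1.62 to 2.29 at B0d and 4.28 to 4.34 at A180d, and the B cell list at 2.94 to 3.26 and 5.42 to 5.60. Of the macrophage list, 1 of 4 was highest at B0d (CSF1R, by 0.04), and the list stood at 6.94 to 7.18 there and at 4.55 to 4.60 at E55d. It stood at 7.13 to 7.56 at W30d, 7.34 to 7.48 at A180d, 7.66 to 7.79 at A2Y and 7.73 to 8.39 in WB. Both stromal markers that could be paired, TLX1, a transcription factor required to form the spleen, and CCL19, a chemokine of the T cell zone, were highest at B0d, by 0.32 and 0.81. No megakaryocyte or pancreas marker could be paired. The part of these cell types in the members' levels was not tested.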

How the data were processed

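Strand-specific paired-end RNA-seq was made from 18 spleens. Per the labels and methods, the authors mapped reads with TopHat (Sscrofa10.2 is named in the processing notes, with replaced sex chromosomes), assembled and filtered lncRNAs with StringTie 1.3.3 and Cufflinks 2.2.1, and deposited log2 values, log2(FPKM+1). Empty cells (52256, not detected) were read as 0. A further scaling between libraries is not given in the sources used here. Whole reads could not be recovered, since at most 2.95% of low values shared a ratio between libraries. E55d columns are numbered 1, 5 and 6, which the labels do not tie to single samples, so they entered as libraries of the group. Columns left unused numbered 0.

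The members and lists were chosen with earlier results of these data known. Named were the 10 largest margins, the 5 highest B0d means, the 3 nearest the limit on each side, up to 5 members called higher and 5 lower in WB, runs of 3 consecutive identifiers, the 2 members with the largest share of B0d FPKM at each other stage, and the 10 protein-coding genes most like the members' mean, of which 1 is not reported here. Lists of erythroid, megakaryocyte, neutrophil, B cell, T cell, macrophage, stromal, proliferation, pancreas and liver markers were read by symbol. The test of WB against A2Y used limma 3.58.1 (R 4.3.3), with a model of 18 libraries in 6 groups with a mean-variance trend and Benjamini-Hochberg adjustment over 14129 lncRNAs (FPKM above 0.1 in at least 3 libraries), which all members passed. On simulated data with 14129 lncRNAs it recovered 62% of changes of 1 and 98% of changes of 2 on the log2 scale, and 4.76% of its calls were false. The planted changes were rises only, in lncRNAs above a set mean level. The noise was alike in every group, with no lower limit on the values and no shift of whole libraries. These rates were therefore not measured for falls, for lower levels or for libraries that differ in overall lncRNA level. The labels do not say that replicate numbers pair A2Y and WB animals, so the main model used no pairing. Other values were computed with Python 3.11.15, numpy 2.4.6 and pandas 2.3.3, and figures drawn with matplotlib 3.10.9. Alternatives were other filters, pseudocounts, scalings, margins and fits, a replicate block, and each library left out. Read counts, positions and sequences of the lncRNAs were not analysed here.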

Additional observations from a re-analysis of the deposited data

How the results depend on the processing

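The number of lncRNAs past the rule was 852 with a pseudocount of 0.1 (130 of the 131 members among them), 443 with a margin of 0.5, 42 with a margin of 1, 72 with the medians of detected lncRNAs made equal (71 of the 131), and 23 with lncRNA factors, and it ran from 110 to 285 as each domestic library was left out, with the highest count without B0d library 2. Protein-coding factors gave 132 (121 shared). The median margin was 1.51 with the pseudocount of 0.1. With lncRNA factors 69 members had a B0d mean at least 0.75 above WB, a count given without its share of all lncRNAs. For WB against A2Y, the pseudocount of 0.1 gave 4 members higher (3.05%) and 28 lower (21.4%), beside 1.05 and 26.0% of all lncRNAs. With lncRNA factors 18 were higher and 2 lower, beside 5.72 and 2.49% of all. With 1 library left out 3 to 4 were higher and 3 to 17 lower, beside 0.595 to 0.885% and 6.94 to 21.1% of all. The cause of these changes was not tested. The replicate number as a block gave 0 higher and 0 lower by limma, with 41 members at an unadjusted p under 0.05, and it had 0 calls over all lncRNAs. The labels state no pairing of A2Y and WB animals. The deviations of same-numbered libraries correlated at 0.05, -0.01 and 0.09, which showed no sign of a pairing but cannot exclude one. TU79892, TU79893, TU56216, TU4169 and TU4170 passed the threshold in all settings but the block, where each had an adjusted p of 0.117 by limma, and their adjusted p ran from 4.92e-05 to 0.0378 over the rest. Other filters, protein-coding factors, no trend and a fit of A2Y and WB alone gave 3 to 4 higher and 7 to 12 lower. In these settings 0.418 to 2.29% of all lncRNAs were higher and 10.1 to 28.4% lower. The number of reads behind a value is unknown, which limits the precision of members below an FPKM of 1.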
